A study of Glycine max with 10 samples.

Results

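The comparison described here is between pods with high and pods with low expression of LHY, a morning gene of the circadian clock. The libraries were chosen by the measured level of LHY1a (Glyma.16G017400), which lay above 100 CPM in 3 of the 10 libraries of the series and below it in the other 7. CPM stands for a count scaled to a common library total, the usual per-million unit, here without a block of 129 consecutive gene IDs on chromosome 13, Glyma.13G011400 to Glyma.13G024200. The 3 libraries are called LHY-high and come from soybean 015 of the high-force group and soybeans 055 and 072 of the low-force group. The 7 LHY-low libraries are soybeans 018, 044, 060 and 071 (high force) and 038, 092 and 109 (low force). The nearest values on either side of the limit were 423.6 CPM in soybean 055 and 28.2 CPM in soybean 018. The split was made on a measured gene and not on a label. The LHY genes are therefore described without a test, and the p-values of other genes measure their association with the LHY split in these 10 libraries, not with an assigned condition.

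All 10 samples were Glycine max pods from plants grown in the field, collected at 18 days after flowering, 5 labelled as having a high force of pod shattering and 5 a low one. No genotype or treatment is named, and the labels give no hour of harvest. Nor do they state if each soybean number stands for 1 plant or for pooled plants. The p-values therefore reflect only sample-to-sample spread here, which may be technical. Library totals ran from 3779756 to 13298201 counts. The deposited table holds IDs only, and names were attached to them from recalled soybean literature.

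In Arabidopsis, LHY encodes a Myb transcription factor that peaks around dawn and represses genes expressed in the evening. Among these are ELF3, ELF4 and LUX, whose proteins form the evening complex, and GIGANTEA and FKF1, which act in day-length sensing. Soybean holds several copies of most of these genes because its genome was duplicated, and the soybean J gene, an ELF3 copy, is a known locus for flowering time.

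Soybean 055, an LHY-high library, stood apart from the other 9 in depth and composition. Counts outside the chromosome 13 block were 4449018 in soybean 015, 1421180 in soybean 055 and 3708168 in soybean 072, against 3653730 to 13120885 in the LHY-low libraries. The block took 13.4%, 78.2% and 26.1% of all counts in the 3 LHY-high libraries and 1.33% to 19.7% in the other 7. The 10 most abundant genes outside the block took another 55.9% of the remaining counts in soybean 055 and 19.8% in soybean 072, against 3.39% to 7.63% in the other 8 libraries. Genes detected outside the block were 30344 in soybean 055, 37863 in soybean 072 and 38744 in soybean 015, against 37491 to 41344. In two-sided exact permutation tests over the 120 possible splits of 3 against 7, none of these 4 measures passed after adjustment over the 4 (adjusted p = 0.0667 for the block, 0.0778 for the 10 most abundant genes, 0.0778 for genes detected and 0.0917 for counts; without soybean 038 the block passed with 0.0476; the smallest unadjusted p the design allows is 0.00833). Their part in the results below was not tested beyond a fit without soybean 055 and a fit with all libraries thinned to its total outside the block. Thinning matched that total only, not the share that abundant genes take of it. The 10 most abundant genes of soybean 055 itself took 19.3% of the counts outside the block in soybean 072. In the other 8 libraries they took 1.43% to 4.96%. In soybean 055 a level of 4.05 CPM rests on 3 counts, which is also the most that a count of 0 allows there; in the other libraries 3 counts make 0.195 to 0.876 CPM. These limits cover counting error only. From here on, CPM uses library sizes corrected for such abundant genes with edgeR's TMM factors (trimmed mean of M-values).

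All 4 LHY genes stood far apart between the libraries. LHY1a was at 1332, 813.7 and 822.0 CPM in soybeans 015, 055 and 072, and between 15.5 and 24.6 CPM (median 18.7) in the 7 LHY-low libraries. LHY1b (Glyma.07G048500) was at 255.6, 173.0 and 132.6 CPM against 7.82 to 13.8 CPM (median 10.5). The other pair was lower in the LHY-low pods. LHY2a (Glyma.19G260900) was at 429.5, 244.6 and 363.4 CPM against 1.19 to 5.38 CPM (median 3.19). LHY2b (Glyma.03G261800) was at 799.8, 527.1 and 516.1 CPM against 1.21 to 4.53 CPM (median 1.67). Soybean 015 held the highest level of each of the 4 genes, and the libraries of the groups did not overlap for any of them, as for 13% of all genes tested. The mean ratio between the groups was 51.5 for LHY1a, 18.2 for LHY1b, 115.2 for LHY2a and 297.2 for LHY2b. These values describe the split, since the rule used the first gene and the 4 were known to move together.

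**Figure D1:**
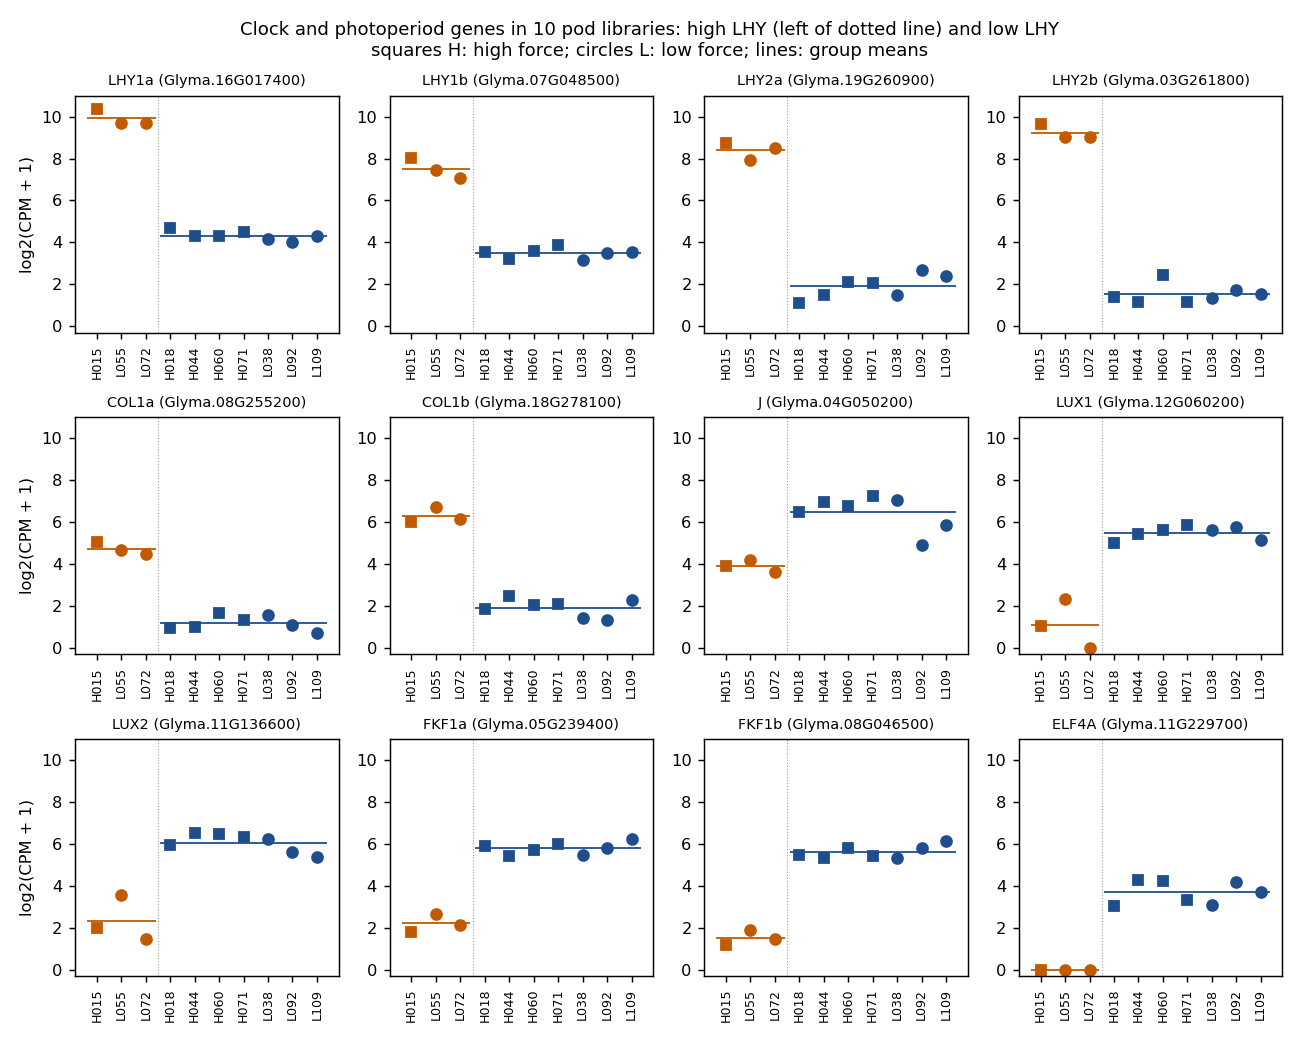
Levels of 12 clock and photoperiod genes in each of the 10 libraries, as log2(CPM + 1), with LHY-high libraries in orange on the left and LHY-low libraries in blue on the right; squares are high-force and circles low-force soybeans, and lines are group means. The LHY and COL1 genes are high in soybeans 015, 055 and 072, where J, LUX1, LUX2, FKF1a, FKF1b and ELF4A are low. No gene shown has overlapping groups, as for 13% of all genes tested. The 12 genes are a selection: GIb, E2 and ELF3B, whose groups overlapped, are among those not shown. ELF4A was chosen after its values had been seen.

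The pair of CONSTANS-like genes rose with LHY. COL1a (Glyma.08G255200) and COL1b (Glyma.18G278100) encode B-box zinc finger proteins related to Arabidopsis CONSTANS, a day-length output of the clock. COL1a was at 32.3, 24.3 and 21.3 CPM in soybeans 015, 055 and 072, and between 0.645 and 2.15 CPM (median 1.18) in LHY-low pods. COL1b was at 63.2, 106.8 and 70.1 CPM against 1.57 to 4.54 CPM (median 3.10). Every LHY-high library lay above every LHY-low library for both genes, and 13% of all genes tested had groups that did not overlap in either direction. Their log2 fold changes, LHY-high minus LHY-low with the force group as a covariate, were 4.32 (SE 0.36) and 4.78 (SE 0.34) in edgeR's quasi-likelihood test (adjusted p = 3.28e-05 and 1.3e-05 over all genes tested). Without the shallow soybean 055 they were 4.31 and 4.52 (edgeR adjusted p = 0.000201 and 8.78e-05).

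Genes of the evening complex fell. J (Glyma.04G050200) was at 14.2, 17.6 and 11.4 CPM in soybeans 015, 055 and 072, against 28.9 to 151.5 CPM (median 107.8) in LHY-low pods. Among the LHY-low pods the lowest J levels were in soybeans 092 (28.9 CPM) and 109 (57.2 CPM), so the gap to the LHY-high pods was small there. LUX1 (Glyma.12G060200), which encodes the DNA-binding member of the complex, was at 1.06, 4.05 and 0 CPM against 31.0 to 58.4 CPM (median 48.3). Its LHY-high values rest on 5, 3 and 0 counts, and the ratio of summed counts per depth was 50.9 (exact binomial 95% interval 25.8 to 118.1, counting error only). LUX2 (Glyma.11G136600) was at 2.96, 10.8 and 1.75 CPM against 41.2 to 90.3 CPM (median 74.6). All 3 genes had groups that did not overlap, as 13% of all genes tested did, and all 3 were called lower, as 2.9% of all genes tested were. The log2 fold changes were -2.68 (SE 0.49) for J, -5.52 (SE 0.66) for LUX1 and -4.11 (SE 0.54) for LUX2, with edgeR adjusted p of 0.00718, 0.000444 and 0.000863. J lost the call without soybean 015 (-2.42, edgeR adjusted p = 0.0810) and with thinned libraries (-2.50, edgeR adjusted p = 0.0548). Without soybean 055 all 3 genes kept the call (edgeR adjusted p = 0.0191 for J, 0.000545 for LUX1 and 0.000164 for LUX2).

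A further 3 evening complex genes were chosen after their values had been seen, from a larger number of candidate clock genes, and support nothing beyond their own values. ELF4A (Glyma.11G229700), a copy of the small protein ELF4, had 0 counts in each of the 3 LHY-high libraries and 7.39 to 18.8 CPM (median 12.1) in the LHY-low libraries. Set against 3 counts over the LHY-high libraries together, it was at least 40.9-fold lower there (edgeR adjusted p = 0.00100). ELF4B (Glyma.18G027500) had 1 count in soybean 015 and 0 in soybeans 055 and 072, against 1.91 to 18.1 CPM (median 6.49). The ratio of its summed counts per depth was 79.6 (exact binomial 95% interval 14.2 to 3149, counting error only), with edgeR adjusted p = 0.00902. This call was lost under 6 of 24 other settings, among them with thinned libraries (edgeR adjusted p = 0.100) and without soybean 015 or 072 (edgeR adjusted p = 0.105 and 0.0560). ELF3B (Glyma.14G091900), a copy of J, was at 21.5, 17.6 and 12.6 CPM against 21.5 to 51.4 CPM (median 40.3). Its groups overlapped at the edge, and it had a log2 fold change of -1.11 (SE 0.31) that did not pass (edgeR adjusted p = 0.0592). It passed under 4 of 24 other settings, namely DESeq2 (adjusted p = 0.0147), library size only, limma-voom with quality weights and without soybean 092.

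The pair of FKF1 genes, which encode light-sensing F-box proteins, fell with the evening complex. FKF1a (Glyma.05G239400) was at 2.53, 5.41 and 3.51 CPM in soybeans 015, 055 and 072, against 42.5 to 74.4 CPM (median 56.0). FKF1b (Glyma.08G046500) was at 1.27, 2.70 and 1.75 CPM against 39.0 to 71.2 CPM (median 43.9). Neither gene's groups overlapped, as for 13% of all genes tested, although the LHY-high values of FKF1b rest on 6, 2 and 6 counts. The log2 fold changes were -4.08 (SE 0.34) and -4.94 (SE 0.36), with edgeR adjusted p of 3.26e-05 and 1.56e-05. Without soybean 055 they were -4.23 and -5.05 (edgeR adjusted p = 0.000201 and 0.000128).

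The copies of GIGANTEA had different values. GIb (Glyma.20G170000) was at 91.5, 112.2 and 73.0 CPM in soybeans 015, 055 and 072, and between 87.7 and 437.2 CPM (median 330.1) in LHY-low pods, where soybean 092 (87.7 CPM) overlapped them. E2 (Glyma.10G221500), a flowering-time locus, was at 215.7, 196.0 and 150.1 CPM against 160.3 to 272.3 CPM (median 202.9), so its groups overlapped. GIb had a log2 fold change of -1.58 (SE 0.43, edgeR adjusted p = 0.0483) and E2 one of -0.23 (SE 0.26, edgeR adjusted p = 0.659). The difference between the copies was not tested, and the call of GIb was lost under 14 of 24 other settings (adjusted p 0.000848 to 0.515 over all 24). One of these was the fit without soybean 055, where GIb was at -1.82 (edgeR adjusted p = 0.0653). The pseudo-response regulator gene PRR3b (Glyma.12G073900) was at 92.7, 41.9 and 49.7 CPM against 95.1 to 207.5 CPM (median 119.2). Its groups touched without overlapping, with a log2 fold change of -1.01 (SE 0.29) that did not pass (edgeR adjusted p = 0.0597). It passed under 3 of 24 other settings, namely DESeq2 (adjusted p = 0.00821), limma-voom with quality weights and without soybean 092. Without soybean 055, PRR3b was at -0.88 and did not pass (edgeR adjusted p = 0.160).

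Of the 9 clock and photoperiod genes listed beside LHY and the evening complex, 7 could be tested with edgeR. Of these, 2 rose (COL1a and COL1b), 3 fell (FKF1a, FKF1b and GIb) and 2 did not pass (PRR3b and E2). Their median log2 fold change was -1.01, against -0.07 over all 31600 genes tested. The same test called 6.52% of all genes, 3.62% higher and 2.9% lower. The untested COL2a (Glyma.13G050300) and COL2b (Glyma.19G039000) had at most 1 count in any library. The RefSeq table gives COL1b the symbol COL2B, so the IDs, not these names, identify the genes.

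Most of the genes called lay outside the 58 listed genes, which follows from the short length of that list. Of 31600 genes tested, 1143 were higher and 916 lower in LHY-high pods, at an adjusted p under 0.05. The first number includes the 4 LHY genes, whose place in it follows from how the libraries were chosen. The median absolute log2 fold change of the called genes was 1.93 (quartiles 1.37 and 2.77) for genes that rose and 1.72 (quartiles 1.30 and 2.45) for genes that fell. A change of over 4-fold was seen in 537 genes that rose and 349 that fell, and of over 16-fold in 95 and 89. Of the genes that fell, 16 had 0 counts in all 3 LHY-high libraries, and 1 that rose had 0 counts in all 7 LHY-low libraries. With these at the bound that 3 counts give, the medians were the same to 2 decimals. Groups did not overlap for 1005 of the genes that rose and 857 of those that fell, against 13% of all genes tested. The split between directions depends on scaling: with library size alone, which does not correct for the abundant genes of soybeans 055 and 072, the median of all genes moved to -0.39 and the calls were 630 higher and 1432 lower. Limma-voom called 1325 higher and 564 lower.

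**Figure D2:**
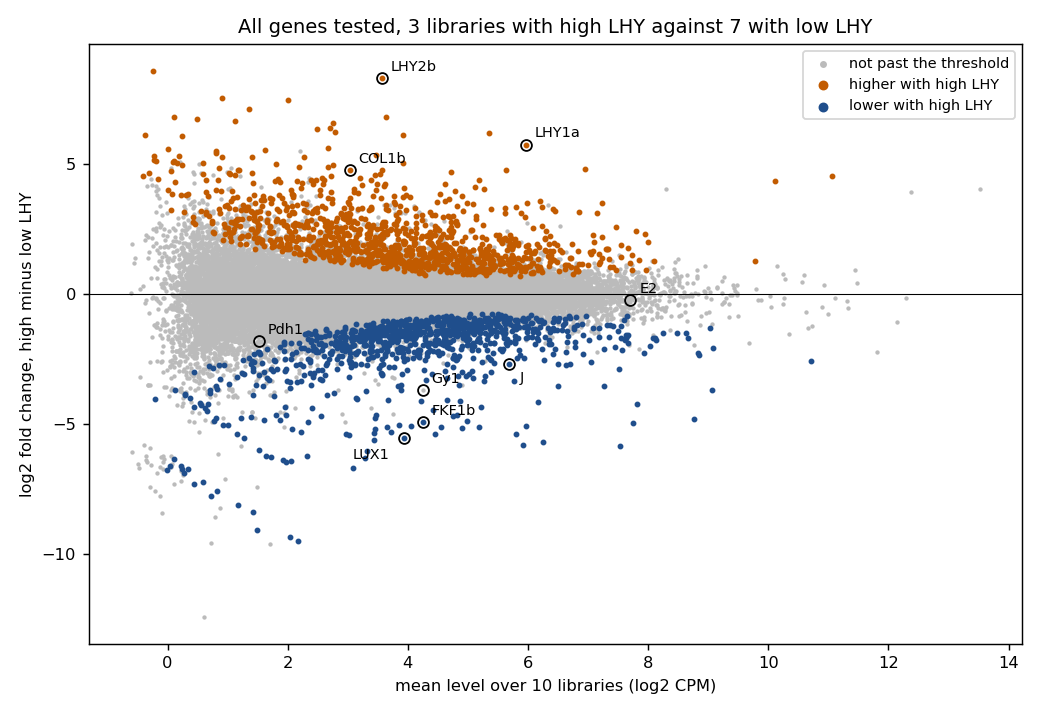
Log2 fold change (LHY-high minus LHY-low) against the mean level over the 10 libraries (log2 CPM) for all 31600 genes tested, with genes past the threshold in orange (1143 higher) and blue (916 lower). Circles mark named genes, of which E2, Pdh1 and Gy1 did not pass.

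Among genes without a name, the 2 in each direction with the smallest p are given here, taken from those with groups that did not overlap and with a call without soybean 055. The files and the reference table give these IDs no name, so no role is given. Glyma.02G250700 was at 163.7, 106.8 and 112.2 CPM in soybeans 015, 055 and 072, and between 1.16 and 3.30 CPM (median 1.75) in LHY-low pods (log2 fold change 6.26, SE 0.27, edgeR adjusted p = 5.47e-07). Glyma.08G038200 was at 71.6, 70.3 and 64.6 CPM against 2.64 to 4.53 CPM (median 3.80), with a log2 fold change of 4.19 (SE 0.22, edgeR adjusted p = 2.16e-06). The spread of this gene was narrow in both groups, at 68.8 ± 3.75 CPM (SD, n = 3) and 3.72 ± 0.682 CPM (SD, n = 7). Among genes that fell, Glyma.02G136700 was at 2.75, 2.70 and 1.75 CPM against 68.7 to 118.2 CPM (median 80.9; log2 fold change -5.15, SE 0.33, edgeR adjusted p = 8.03e-06). Glyma.12G055000 was at 1.90, 1.35 and 1.17 CPM against 44.7 to 91.7 CPM (median 67.1; log2 fold change -5.37, SE 0.40, edgeR adjusted p = 1.67e-05). Its LHY-high values rest on 9, 1 and 4 counts.

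The levels of the genes that changed were summed as a percentage of the TMM-corrected library size. They are not shares of the counted transcripts, since the TMM factors differed. The factor was 1.06, 0.521 and 0.923 in soybeans 015, 055 and 072, and 0.995 to 1.18 in the LHY-low libraries. For genes that rose the sums were 8.92%, 21.3% and 13.9% in soybeans 015, 055 and 072, and 2.05% to 2.51% in the LHY-low libraries. Without the 10 most abundant genes of soybean 055, of which 3 were called higher, these sums were 8.40%, 7.99% and 7.78% against 1.99% to 2.39%. Genes that fell summed to 1.53%, 1.51% and 1.58% in the LHY-high libraries and 4.71% to 6.77% in the LHY-low ones. The members were chosen for these differences, so the sums only describe them. In bulk pods, fewer cells of a type and less RNA per cell cannot be told apart.

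Calls were made at all levels of expression. In the lowest quartile of mean level (0.658 to 4.63 CPM), 2.87% of genes rose and 1.33% fell, and in the highest quartile (above 26.8 CPM) 3.94% rose and 4.25% fell. Among genes that rose, the highest of the LHY-high libraries was soybean 015 for 472 genes, soybean 055 for 366 and soybean 072 for 305. Among genes that fell, these numbers were 259, 277 and 380.

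Calls were spread over all chromosomes. The share of tested genes called ran from 5.26% on chromosome 19 to 7.52% on chromosome 11, as the chromosome is written in the gene IDs. Chromosome 16, with LHY1a and the shattering gene Pdh1, had 6.44%. Of 31579 pairs of neighbouring tested genes, 184 had both members called, and 133 of these pairs (72.3%) moved the same way, against 53.1% of all neighbouring pairs by the sign of the log2 fold change. The 53.1% comes mostly from pairs of genes that were not called, so these shares are not of like pairs. Of all single genes tested, 6.52% were called. Neighbours can be duplicated copies that share reads, so their counts are not separate.

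Without soybean 055, 848 of the 1143 genes that rose (74.2%) and 536 of the 916 that fell (58.5%) were called again in the same direction, in a fit that called 976 higher and 635 lower (4.8% of 33577 genes). Of the genes that fell, 112 had 0 counts in soybean 055. A total of 1271 genes were called with and without soybean 055 and had groups that did not overlap, 756 of them higher and 515 lower. Groups did not overlap for 13% of all genes tested. They did not for 87.9% of the genes called higher and 93.6% of those called lower, so this criterion adds little to the call. Fewer genes were called without either of the other LHY-high libraries: 385 higher and 237 lower without soybean 015, and 638 and 397 without soybean 072. Soybean 015 is the only LHY-high library of the high-force group. With the force term, the fit without it compares only low-force pods, 2 against 3. That fit kept 577 of the genes called with all libraries in the same direction (28.0%). Smaller groups and a dependence on soybean 015 cannot be told apart in this number. In every fit that left out 1 soybean, 308 of the genes that rose (27.0%) and 169 of those that fell (18.4%) were called. The fit without soybean 015 is among these and limits both numbers. With all libraries thinned to 1421180 counts outside the block, 416 were higher and 245 lower, and 629 of these 661 were among the genes called at full depth, in the same direction.

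**Figure D3:**
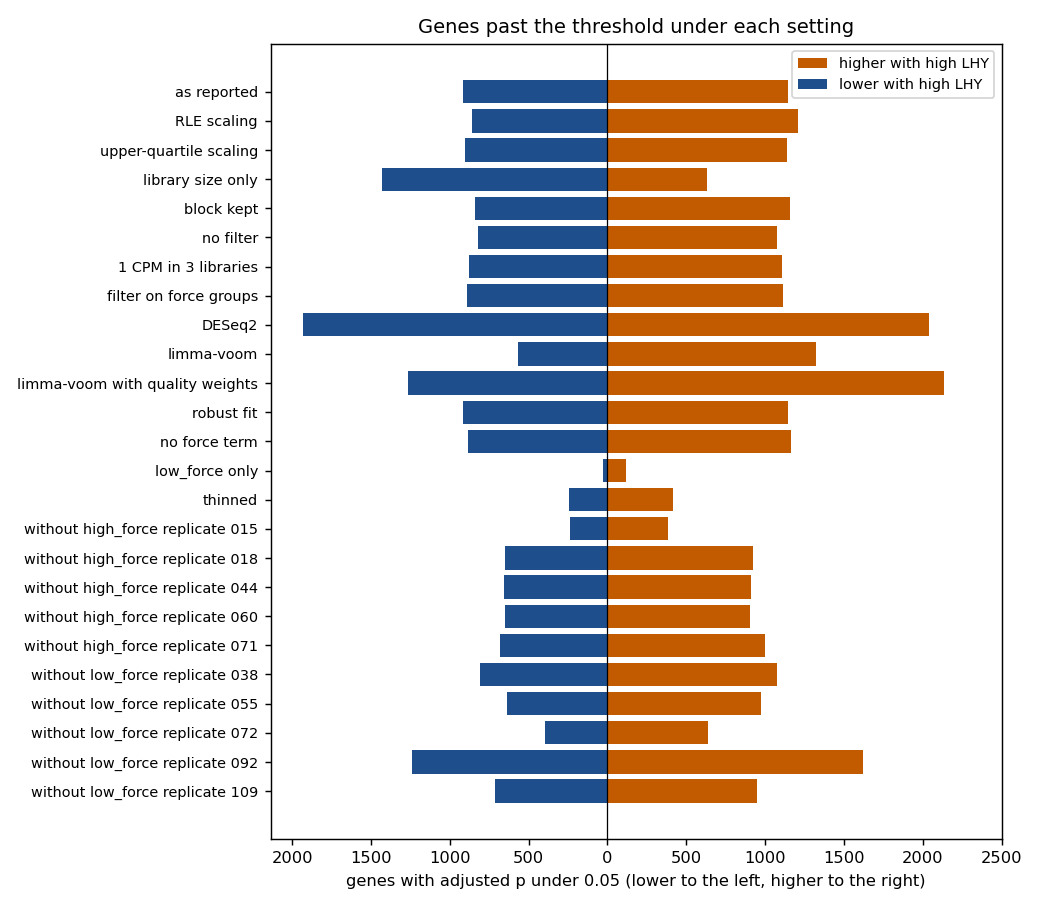
Number of genes past the threshold under each setting, with genes higher in LHY-high pods to the right and genes lower to the left of 0. The numbers range from 140 in the low-force libraries alone to 3974 with DESeq2, and with library size only more genes are lower than higher.

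The split runs across both force groups, so it was also examined in sets of pods that share no library. Among low-force pods alone, soybeans 055 and 072 against 038, 092 and 109, 140 genes (0.448% of those tested) passed in edgeR, 115 higher (0.368%) and 25 lower (0.0799%). The 115 include the 4 LHY genes, whose difference follows from how the libraries were chosen and is not counted further. Of the other 111 that rose, 107 (96.4%) were also higher in high-force soybean 015 than in the other 4 high-force soybeans, 105 of them over 2-fold. All 25 that fell were also lower in soybean 015, each over 2-fold. Over all 30415 genes tested in both sets, without the LHY genes, 63.6% had the same sign and 19.8% the same sign with over 2-fold in high-force pods. The median log2 fold changes of the genes that rose were 4.07 in low-force and 3.18 in high-force pods, and of those that fell -4.80 and -4.55. The high-force set holds 1 LHY-high library, so its values carry no test. In the low-force set the 10 most abundant genes of soybean 055 also followed the split. They took 55.9% and 19.3% of counts outside the block in soybeans 055 and 072, against 2.61% to 4.96% in soybeans 038, 092 and 109. Their part in the low-force result was not tested.

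**Figure D4:**
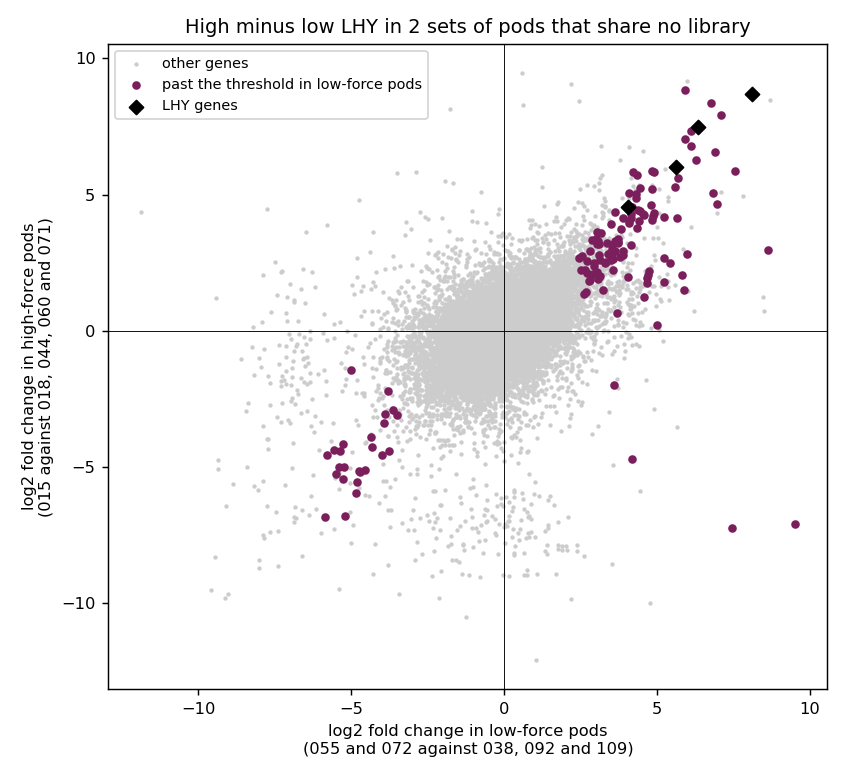
Log2 fold change (LHY-high minus LHY-low) of each gene in low-force pods (horizontal) and in high-force pods (vertical), 2 sets with no library in common. Genes past the threshold in low-force pods are purple and LHY genes are black diamonds; 107 of 111 purple genes on the right and all 25 on the left have the same sign in both sets.

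The COL1 and FKF1 genes differed in the same direction in both sets. COL1a had log2 fold changes of 4.20 in low-force and 4.53 in high-force pods, and COL1b 5.24 and 4.16. FKF1a had -3.77 and -4.41, and FKF1b -4.73 and -5.14. These 4 genes passed in the low-force pods alone (edgeR adjusted p = 0.0324, 0.0114, 0.0292 and 0.0212). J (-2.33 and -3.07), LUX1 (-5.51 and -5.41) and LUX2 (-3.43 and -4.75) did not pass there (edgeR adjusted p = 0.264, 0.0853 and 0.121). Nor did GIb (-1.27 and -1.97), PRR3b (-1.29 and -0.60) and E2 (-0.29 and -0.07), with edgeR adjusted p of 0.515, 0.327 and 0.848.

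The lists of light perception and flowering genes are too short to be set apart from the background. Of the 4 phytochrome A genes, E4 (Glyma.20G090000) was at 44.5 ± 5.37 CPM in LHY-high pods (SD, n = 3) and 49.4 ± 11.6 CPM in LHY-low pods (SD, n = 7), and E3 (Glyma.19G224200) at 11.7 ± 3.90 and 11.1 ± 3.75 CPM. The florigen gene FT5a (Glyma.16G044100) was at 31.9, 28.4 and 59.3 CPM in soybeans 015, 055 and 072, against 5.72 to 37.5 CPM (median 11.7), where soybean 092 overlapped. Its log2 fold change was 1.34 (SE 0.40, edgeR adjusted p = 0.0679), which passed without soybean 092 (1.73, edgeR adjusted p = 0.00807). By edgeR, 0 of the 4 phytochrome A genes and 0 of the 2 tested flowering genes passed (smallest unadjusted p = 0.290 and 0.00558), against 6.52% of all genes tested, a share at which 0 of so few genes says nothing about the lists. DESeq2 called FT5a (adjusted p = 0.0307). The other 7 flowering genes listed had at most 7 counts in any library.

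Shattering and flavonoid genes are given by their values. Pdh1 (Glyma.16G141400), a dirigent-like gene of pod dehiscence, was at 0.634, 0 and 7.30 CPM in soybeans 015, 055 and 072, against 0.519 to 28.9 CPM (median 2.86), with a log2 fold change of -1.80 (SE 0.83, edgeR adjusted p = 0.226). The NAC genes of secondary walls had overlapping groups, with SHAT1-5 (Glyma.16G019400) at 26.7 ± 4.61 and 30.7 ± 6.09 CPM, and NST1A (Glyma.07G050600) at 49.6 ± 9.41 and 46.4 ± 9.71 CPM (SD, n = 3 and 7). The chalcone synthase genes CHS7 (Glyma.01G228700) and CHS8 (Glyma.11G011500) were at -0.58 (SE 0.33) and -0.78 (SE 0.43) as log2 fold changes. By edgeR, 0 of 3 shattering, 0 of 5 flavonoid, 0 of 3 stay-green and 0 of 4 reference genes passed, against 6.52% of all genes tested, so these counts are near the background. Of these genes ACT11 (Glyma.18G290800), an actin gene used as a reference, had the smallest unadjusted p (0.00588; log2 fold change -0.90, SE 0.27, adjusted p = 0.0698), and DESeq2 called it (adjusted p = 0.0116). The others had unadjusted p of 0.0501 or more, and neither DESeq2 nor limma-voom called them.

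Seed reserve genes, used here as markers of developing seed, stood apart in 1 LHY-low library and not between the groups. The summed level of 7 such genes (glycinins, beta-conglycinin, lectin and trypsin inhibitor) was 26.4, 14.9 and 27.2 CPM in soybeans 015, 055 and 072. In LHY-low pods it lay between 1.17 and 193.4 CPM in 6 libraries and at 18153 CPM in soybean 109. The lectin gene Le1 had 0, 1 and 1 counts in the LHY-high libraries. Of the 6 tested members 0 passed in edgeR (log2 fold changes -5.10 to -3.69, smallest unadjusted p = 0.0695), and neither DESeq2 nor limma-voom called any. These values rest on single libraries: without soybean 109 the 5 members still tested were at -1.56 to -1.03, and without soybean 015 the 6 were at -8.60 to -6.93. The part of seed RNA in the other results was not tested; without soybean 109, 949 genes were higher and 712 lower.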

How the data were processed

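RNA from pods was sequenced as paired-end TruSeq libraries, per the labels' protocols. Tools listed in the submitters' processing notes are edgeR, featureCounts, Subread 1.6.2, TopHat2 and Trim Galore 0.4.4; their settings and strand use are not given in the sources used here. The deposited values are raw counts per gene from the authors, for 56044 gene IDs of the Wm82.a2.v1 form in 10 libraries. Total counts ran from 3779756 to 13298201. Closely related copies and overlapping genes can share reads, so their counts are uncertain.

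The 129 IDs of the chromosome 13 block were left out of library sizes and tests. From the deposited counts, edgeR 4.0.16 (R 4.3.3) computed TMM scaling, filterByExpr on the LHY split (minimum count 10, 31600 genes kept) and a two-sided quasi-likelihood test with terms for force group and LHY split, with Benjamini-Hochberg adjustment at 0.05. The filter can keep a gene for its level in the 3 LHY-high libraries alone. The force coefficient of this fit is not reported. limma 3.58.1 and DESeq2 1.42.0 were alternatives, and the code was tested on simulated data. Every pair of libraries differed by more than sampling noise, with a chi-square of at least 9.97 per degree of freedom.

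The split, the members and the gene lists were chosen with earlier results of these data known. Of 58 listed genes, 36 were given a RefSeq name (Glycine_max_v4.0) on the chromosome in their ID; these names were picked by hand and some differ (LUXB for LUX1, LUXC for LUX2, COL2B for COL1b), so the agreement in chromosome is partly built in; 0 deposited IDs occur in that table, so lists by gene description were not run. Named genes are the listed genes and the 2 unlisted IDs per direction with the smallest p among those with groups that did not overlap and a call without soybean 055.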

Additional observations from a re-analysis of the deposited data

Results flagged for a closer look

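Among 52 sets of values searched, 4 held a library far from the rest of its group by Dixon's test at the 95% level, which chance gives in about 1 in 20 groups. All 4 lie in the LHY-low group, where GIb had a log2 CPM of 6.46 in soybean 092 (next library 7.95), and the stay-green genes D1 and D2 had 6.97 and 7.29 in soybean 092 (next libraries 4.07 and 3.92). The glycinin gene Gy5 had 9.88 in soybean 109 (next library 3.33).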

How the results depend on the processing

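Genes called higher numbered 2041 with DESeq2, 630 with library size only, 2132 with limma-voom with quality weights, 115 in low-force libraries only and 416 with thinned libraries. Genes called lower numbered 1933 with DESeq2, 1432 with library size only, 564 with limma-voom, 1262 with quality weights, 25 in low-force libraries only and 245 with thinned libraries. Leaving out 1 soybean gave 385 to 1618 higher and 237 to 1238 lower, the highest without soybean 092; the adjusted exact permutation p of the block share ran from 0.0476 (without soybean 038, past the threshold) to 0.278. COL1a, COL1b, FKF1a, FKF1b and the 4 unnamed IDs kept their call and direction in all 24 settings. LUX1, LUX2 and ELF4A lost the call only in low-force libraries alone. Of the values that changed sign, none had passed the test (edgeR) or passed it in the setting concerned. With library size only, E3 was at -0.12, NST1A at -0.15 and TIP41 at -0.28. With limma-voom IFS2 was at -0.33 and PHYA4 at -0.14; with quality weights D2 was at 0.34, IFS2 at -0.82 and UKN1 at 0.034. In low-force libraries only, E4 was at 0.26, PHYA1 at 0.11 and TIP41 at -0.14; without a filter TIP41 was at -0.025; with thinned libraries FT2a was at 0.12, NST1A at -0.096 and TIP41 at -0.23. Leaving out 1 soybean, log2 fold changes ran from -1.62 to 0.030 for D1, -2.04 to 0.57 for D2, -0.19 to 0.19 for E4, -2.62 to 0.63 for FT2a, -4.44 to 0.32 for IFS1, -0.11 to 1.07 for IFS2, -0.46 to 0.035 for PHYA1, -0.18 to 2.33 for PHYA4, -0.18 to 0.16 for TIP41 and -0.34 to 0.073 for UKN1. The cause was not tested. Depth limits low values: 112 of the genes called lower had 0 counts in soybean 055, where 0 counts allow up to 4.05 CPM. No paired analysis of the LHY split was possible because each soybean number has only 1 library.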
